A study of Mus musculus with 15 samples.

Results

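The genes described here are 36 genes of mitosis and the spindle, of 34554 genes and added sequences counted in the series. They were listed by name and were not picked on a threshold of these data, but they were chosen with earlier results of these data known. The list holds cyclin-dependent kinase 1 with its cyclins, the kinases that start mitosis, the spindle checkpoint, kinetochore proteins, motor proteins of the spindle, the machinery of cytokinesis, and the proliferation markers Top2a and Mki67. All 36 passed the expression filter. RNA was sequenced from organoids of normal mouse pancreatic ducts, which are epithelial cultures grown in Matrigel. Doxycycline at 1 µg/ml was used to switch on CA19-9, a sialylated Lewis glycan that mice do not make. Cultures with doxycycline for 24 h, 4 h or 0 h came from 3 lines with all alleles needed for CA19-9 (A217, A220 and A225, here inducible). The same times were taken from 2 lines that lack one of the required alleles (A218 and A223, here negative). The labels do not name the missing allele.

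Each line gave 1 library at each time, which makes 15 libraries. The medium of all cultures was renewed 24 h before a common harvest, so the 0 h cultures had the fresh medium but no doxycycline. The lines are counted as replicates. How many animals gave rise to the lines is not stated, so the p-values below reflect only the spread among these lines. In fits with the line as a replicate block, that is the spread of their changes over time, not of their levels. No culture without doxycycline was sampled at a second time, and negative lines received doxycycline as well.

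Depth, as the sum of estimated counts, ran from 47915632 to 59411540 a library. No library was a copy of another, since chi-square per degree of freedom was 15.03 to 42.91 in the 12 pairs within groups. EGFP, one of the sequences added to the reference, stood at 261 to 377 CPM (library-scaled counts) at 24 h and 264 to 344 at 4 h in inducible lines, against 0.342 to 0.739 at 0 h. In negative lines it stayed between 0.0983 and 0.353. Of 10 duct epithelium markers 9 reached 1 TPM, a measure scaled for transcript length, with Cftr at no more than 0.914 TPM. Their summed level was 13500 to 16100 TPM at 24 h, 9600 to 11900 at 4 h and 10300 to 12800 at 0 h. The keratins Krt8 and Krt18 rose at 24 h (log2 changes of 0.53 and 0.50). Markers of fibroblasts (6 genes), acinar cells (5) and endocrine cells (5) summed to at most 0.973, 0.565 and 0.267 TPM. Cpa1, Ins1, Ins2 and Gcg were listed at 0 in every library. Of immune markers, Cd68 stood at 1.53 to 2.74 TPM and Ptprc stayed at or below 0.186 TPM, while Csf1r was called higher at 24 h at a level of at most 1.43 TPM. Of endothelial markers, Pecam1 stood at 2.46 to 4.98 TPM and Cdh5 at no more than 0.0076 TPM. The part of duct markers in the results below was not tested. In bulk samples, fewer dividing cells and less of an RNA per cell cannot be told apart.

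A cell enters mitosis when CDK1 bound to cyclin B becomes active, with help from the polo-like and Aurora kinases. Chromosomes then attach through kinetochores to the spindle, and the spindle checkpoint holds back the anaphase-promoting complex until all are attached. CDC20 activates that complex, which destroys securin and cyclin B, separase splits the sister chromatids, and cytokinesis follows. Most of these genes are transcribed in late S phase to mitosis. In that window the DREAM repressor complex gives way to the activators MYBL2 and FOXM1 at a promoter element called the cell cycle genes homology region (CHR). The CHR often lies near CCAAT boxes, which bind the factor NF-Y.

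The promoters are shown first, because the CHR and the CCAAT box are what most of these genes share beyond their role. RefSeq promoters of GRCm38.p6 (250 bases before to 50 after the start of the gene) were found for 30 of the 36 genes. TTTGAA or TTCGAA, on either strand, lay in 24 of the 30 (80.0%), against 5854 of 27025 genes in the promoter table (21.7%). CCAAT on either strand lay in 23 of 30 (76.7%), against 41.1% of all genes. Both lay in 21 of 30 (70.0%), against 9.65% of all genes. E2F-like letters (TTTCCCGC, TTTGGCGC or TTTCGCGC) lay in 1 of 30, the promoter of Cdk1 (3.33%, against 2.12% of all). Among 124 other mitotic genes listed for comparison, 100 had a promoter in the table, and 50.0% of these held a CHR match. The next 5 promoters come from genes whose level changed in the test below or that are the most abundant of their role. Each has a CHR match in the last 120 bases before the RefSeq start, and stretches that reach over 30 bases into the GENCODE gene, as in Ube2c and Bub3, are not printed. CHR matches and CCAAT boxes are in capitals, and TTCAAA and ATTGG are the same letters on the other strand.
Espl1: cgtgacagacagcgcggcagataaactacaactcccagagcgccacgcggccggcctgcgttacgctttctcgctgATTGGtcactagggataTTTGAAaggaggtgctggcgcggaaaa
Top2a: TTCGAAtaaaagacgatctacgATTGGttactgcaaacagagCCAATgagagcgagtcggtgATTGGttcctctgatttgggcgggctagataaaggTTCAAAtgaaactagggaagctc
Kif11: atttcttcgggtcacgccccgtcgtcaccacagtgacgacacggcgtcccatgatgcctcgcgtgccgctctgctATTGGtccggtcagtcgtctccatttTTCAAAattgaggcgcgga
Cdk1: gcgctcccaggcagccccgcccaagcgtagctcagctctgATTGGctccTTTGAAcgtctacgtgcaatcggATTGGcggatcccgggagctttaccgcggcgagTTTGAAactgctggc
Cdc20: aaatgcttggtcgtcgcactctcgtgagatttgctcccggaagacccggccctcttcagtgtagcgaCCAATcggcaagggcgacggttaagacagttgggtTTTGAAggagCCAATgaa
The 5 stretches lie at chr15:102296173-102296292 (Espl1, plus strand), chr11:99024190-99024309 (Top2a, minus strand), chr19:37376262-37376381 (Kif11, plus strand), chr10:69352913-69353032 (Cdk1, minus strand) and chr4:118437344-118437463 (Cdc20, minus strand), all in GRCm38.p6. In the GENCODE annotation the genes Espl1, Cdk1 and Cdc20 begin 27, 26 and 9 bases inside the stretch. The CHR match nearest to the start began 27 bases before the RefSeq start in Espl1, 23 in Top2a, 19 in Kif11, 15 in Cdk1 and 18 in Cdc20. The nearest CCAAT box began 8 bases before the start in Cdc20 and 44 to 58 bases before it in the other four, and no CHR match overlapped a CCAAT box. Bub3, a checkpoint protein whose RNA moved the least of the 36, also held both elements, at 43 and 32 bases before the first of its starts. At 24 h the 24 genes with a CHR match had a median log2 change of -0.22 (-0.34 to -0.05), and the 6 in the table without one had a median of -0.20 (-0.26 to -0.16). The difference between these medians was not tested. Matches describe these letters in this window, not bound sites.

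Per transcript length, Cdk1 was the most abundant of the 36 at 0 h, with 456 ± 18 TPM over the 5 lines (SD, n = 5), and Espl1, which encodes separase, the least, with 9.06 ± 0.541 TPM. After Cdk1 came Top2a, the topoisomerase that untangles sister chromatids (295 ± 17.3 TPM), and Cdc20 (214 ± 11.8 TPM). Together the 36 genes took 0.482% to 0.614% of TMM-scaled counts at 24 h, 0.548% to 0.644% at 4 h and 0.587% to 0.657% at 0 h. CPM after TMM scaling compares 1 gene between libraries and is used for all changes below.

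After 24 h of doxycycline the mitotic genes were lower in inducible and negative lines alike. Over all 5 lines, weighted equally, every one of the 36 had a negative log2 change at 24 h against 0 h, between -0.38 (Aurkb) and -0.05 (Bub3). Their median was -0.22, a decrease of 14.4%, against a median of 0.00 over all 16462 features tested. 20 of the 36 fell in edgeR's quasi-likelihood test with Benjamini-Hochberg adjustment over all features (adjusted p under 0.05), and none rose. Of all features 7.98% were called lower in that comparison, and this share applies to the 24 h counts by role below. In those, a gene said to have fallen, with no fit named, was called lower by this test. The libraries of a line are paired across times, and with the line as a replicate block 34 of the 36 fell, all but Bub3 and Ndc80, against 15.6% of all features. The 20 were among these 34. In 34 genes the level at 24 h was below that at 0 h in each of the 5 lines. The share of all features with this pattern was not counted.

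The size of the decrease varied by line. The summed level of the 36 genes was 6141 CPM at 24 h, against 6575 CPM at 0 h, in the inducible line A217, a decrease of 6.59%. In A220 it was 4819 CPM at 24 h, against 5872 CPM at 0 h, and in A225 5428 CPM, against 6173 CPM. Among negative lines it was 5139 CPM at 24 h, against 6334 CPM at 0 h, in A218 and 5043 CPM, against 6108 CPM, in A223. The sum thus decreased by 17.9% in A220 and decreased by 12.1% in A225, and among negative lines it decreased by 18.9% in A218 and decreased by 17.4% in A223, so that A217 changed least. In 31 of the 36 genes A217 was the highest of the 5 libraries at 24 h, and in 20 it was the only 24 h library within or above the 0 h range. For 6 genes (Ccnb2, Aurkb, Cdca8, Ttk, Ube2c and Espl1) every 24 h library lay below every 0 h library. How many of all features separate in this way was not counted, for this or the other comparisons of times.

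Single libraries moved the count of 20. It was 7 without A217 at 0 h, 9 without A218 at 0 h, 13 without A223 at 0 h, 13 without A218 at 24 h, 11 without A220 at 24 h, 9 without A223 at 24 h, 11 without A225 at 24 h and 28 without A217 at 24 h. Aurkb, Cdca8, Incenp, Bub1b, Cenpa and Espl1 were called whichever of the 10 libraries was left out. In each of these 10 fits all 36 log2 changes were negative. Calls over all features moved too, here given for fits that keep both negative lines at each time. 839 of 16399 were called lower without A217 at 0 h and 1707 of 16433 without A217 at 24 h. It was 915 of 16424 without A220 at 24 h and 933 of 16397 without A225 at 24 h.

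**Figure D1:**
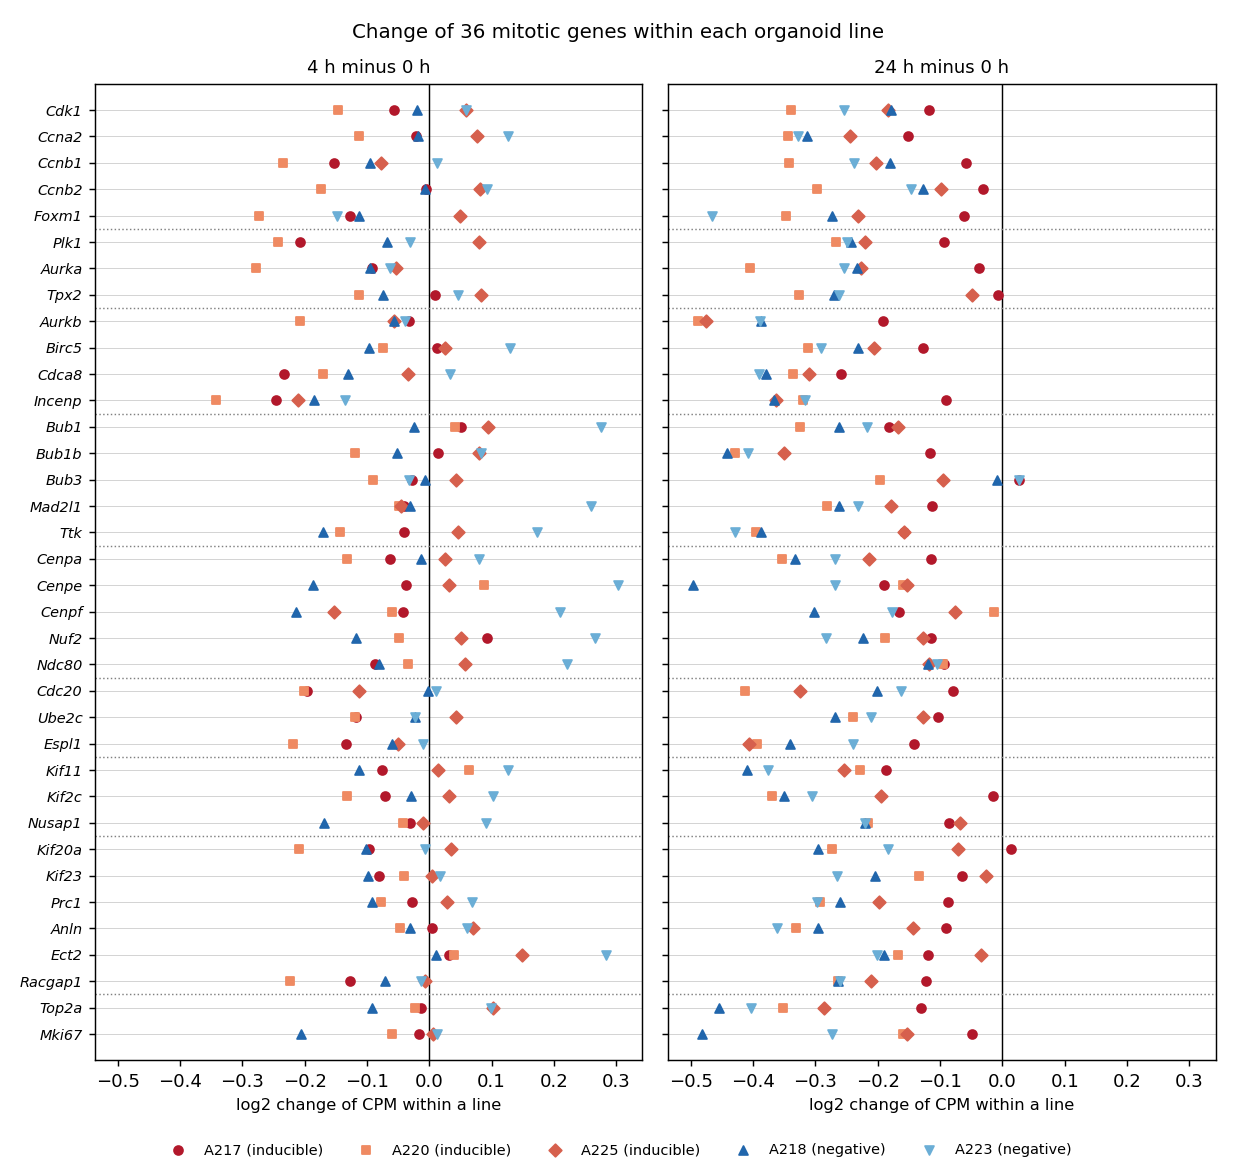
Log2 change of TMM-scaled CPM within each organoid line for the 36 genes, at 4 h minus 0 h (left) and 24 h minus 0 h (right); each point is 1 line, red or orange for inducible and blue for negative, and dotted lines part the roles. At 24 h 34 genes lie below 0 in all 5 lines, whereas at 4 h the points lie on both sides of 0.

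The chromosomal passenger complex corrects faulty attachments of chromosomes and later directs cytokinesis. Its 4 members fell at 24 h, with a median log2 change of -0.31, the lowest of the 9 roles. Values below run in the order of the inducible lines A217, A220 and A225 and then the negative lines A218 and A223. Aurkb, its kinase (chromosome 11, 69045647 to 69051664 in GRCm38, as are the gene positions below), stood at 90.4, 70.6, 70.8, 75.7 and 73.1 CPM at 24 h, against 103, 99.0, 98.4, 99.0 and 95.7 CPM at 0 h. Every 24 h library was below every 0 h library, and the decrease was smallest in A217. The log2 change of Aurkb was -0.38 ± 0.07 (SE; edgeR adjusted p = 0.00239), a decrease of 23.2%, the largest of the 36. Cdca8, or borealin, a scaffold subunit (chromosome 4, 124918465 to 124939311), stood at 64.5, 56.1, 56.1, 59.1 and 56.7 CPM at 24 h, against 77.2, 70.8, 69.5, 76.9 and 74.3 CPM at 0 h. These groups did not overlap either, and its log2 change was -0.33 ± 0.05 (edgeR adjusted p = 0.000919). Incenp, which anchors the kinase (chromosome 19, 9872296 to 9899551), stood at 93.2, 74.9, 69.5, 78.2 and 76.9 CPM at 24 h, against 99.3, 93.6, 89.4, 101 and 95.7 CPM at 0 h. Only A217 at 24 h was inside the 0 h range, and the log2 change was -0.29 ± 0.07 (edgeR adjusted p = 0.0132). Birc5, or survivin, the most abundant member by CPM, stood at 96.2, 76.7, 83.8, 86.1 and 83.7 CPM at 24 h, against 105, 95.2, 96.6, 101 and 102 CPM at 0 h, a log2 change of -0.23.

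The spindle checkpoint held both the second largest and the smallest decrease. Bub1b, which encodes BubR1, an inhibitor of CDC20 (chromosome 2, 118598211 to 118641591), stood at 127, 94.0, 97.6, 101 and 96.7 CPM at 24 h, against 138, 127, 124, 138 and 128 CPM at 0 h. Its 4 libraries other than A217 were between 94.0 and 101 CPM at 24 h, below all 0 h libraries, and its log2 change was -0.34 ± 0.08 (edgeR adjusted p = 0.0102). Ttk, the checkpoint kinase MPS1, stood at 60.0, 46.8, 60.1, 52.3 and 47.0 CPM at 24 h, against 66.9, 61.5, 67.1, 68.4 and 63.2 CPM at 0 h, with no overlap and a log2 change of -0.30. Bub3, the partner of Bub1 and BubR1 and the most abundant of the group, stood at 167, 142, 152, 162 and 161 CPM at 24 h, against 164, 163, 162, 163 and 158 CPM at 0 h. Its groups overlapped, 2 lines were higher at 24 h, and its log2 change of -0.05 ± 0.04 did not pass (edgeR adjusted p = 0.481, 0.286 with the replicate block). Mad2l1 and Bub1 had log2 changes of -0.21 and -0.23. Both passed at 24 h against 0 h with the replicate block only.

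CDK1, its cyclins and FOXM1 drive entry into mitosis, and 4 of the 5 fell, all but Ccnb2. Foxm1 (chromosome 6, 128362967 to 128376146), the transcription factor of many genes listed here, stood at 56.9, 47.7, 48.0, 51.3 and 52.6 CPM at 24 h, against 59.4, 60.7, 56.4, 62.0 and 72.6 CPM at 0 h. The highest 0 h library was A223, and A217 at 24 h overlapped the 0 h range. Its log2 change was -0.28 ± 0.07 (edgeR adjusted p = 0.0138). Ccna2, cyclin A2 (chromosome 3, 36564865 to 36572150), stood at 315, 244, 263, 267 and 263 CPM at 24 h, against 350.3, 309, 312, 332 and 330.0 CPM at 0 h. Again A217 alone overlapped, and the log2 change was -0.27 ± 0.07 (edgeR adjusted p = 0.0209). Cdk1 itself stood at 248, 195, 228, 219 and 205 CPM at 24 h, against 269, 246, 259, 248 and 244 CPM at 0 h, a log2 change of -0.21. Ccnb1, cyclin B1, stood at 234, 180.4, 199, 209 and 192 CPM at 24 h, against 244, 229, 229, 237 and 227 CPM at 0 h, a log2 change of -0.20. Both fell, with A217 again the exception to separate groups. Ccnb2, cyclin B2, had a log2 change of -0.14 and passed with the replicate block only. Ccnb1 and Ccnb2 have annotated pseudogene copies, between which reads may have been split.

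**Figure D2:**
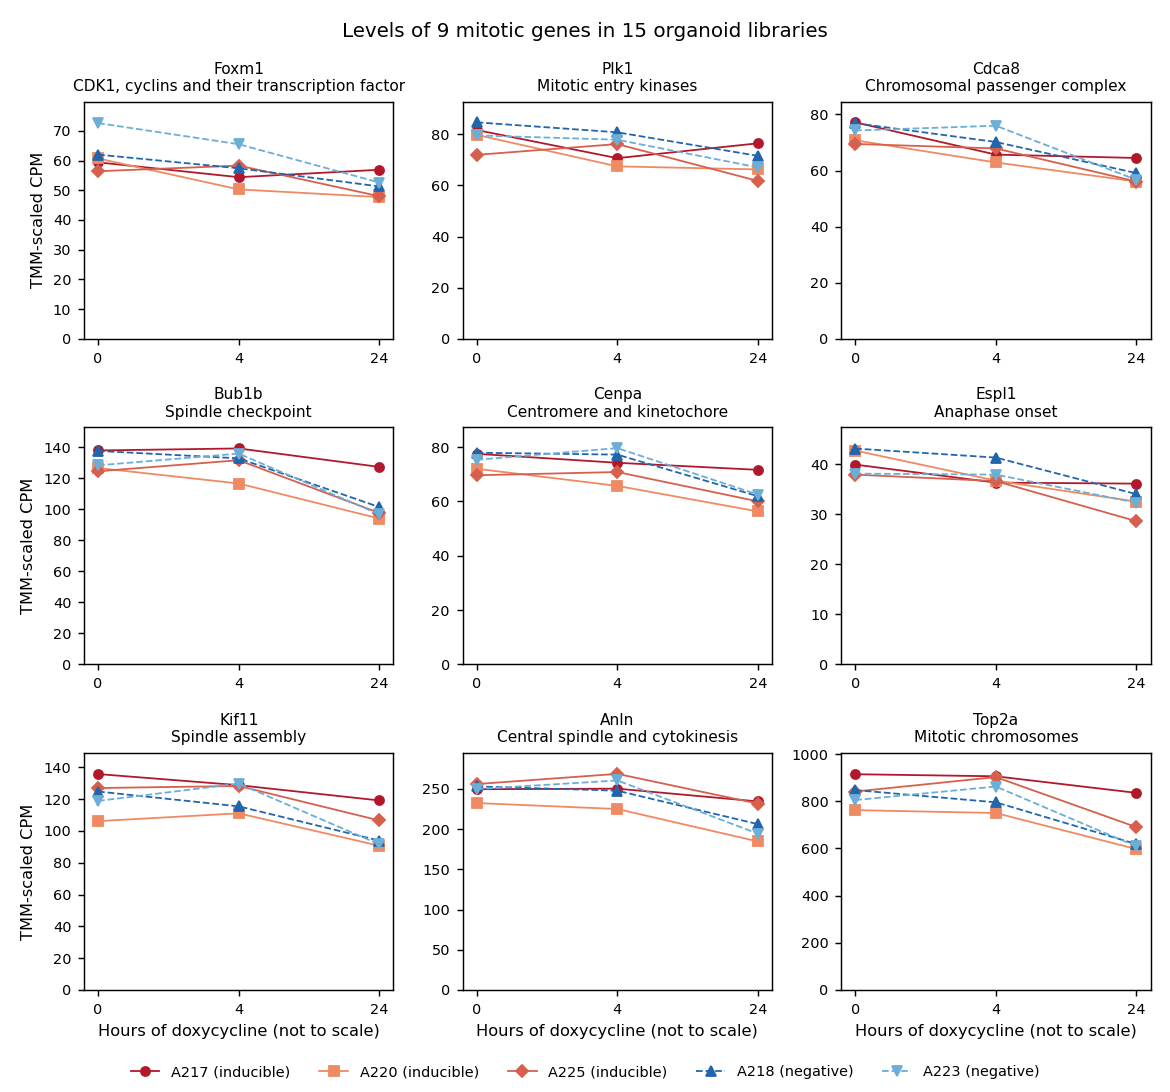
TMM-scaled CPM at 0, 4 and 24 h of doxycycline for the gene with the smallest p at 24 h in each of the 9 roles; each line joins the 3 libraries of 1 organoid line, solid for inducible and dashed for negative. In Bub1b and Top2a the inducible line A217 stays highest at 24 h, at 127 and 836 CPM.

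Among the kinases of mitotic entry, Plk1 and Aurka fell. Plk1, polo-like kinase 1, stood at 76.4, 66.2, 61.7, 71.5 and 67.0 CPM at 24 h, against 81.6, 79.7, 71.9, 84.6 and 79.5 CPM at 0 h, a log2 change of -0.21. Aurka, the Aurora kinase of spindle poles, stood at 118, 88.7, 97.2, 98.7 and 98.2 CPM at 24 h, against 121, 117, 114, 116 and 117 CPM at 0 h, a log2 change of -0.23. In both, A217 at 24 h lay inside the 0 h range and the other 4 libraries below it. Tpx2, the activator of Aurora A and the most abundant of this group by CPM, stood at 202, 155, 194, 170.0 and 165 CPM at 24 h, against 204, 194, 200.3, 205 and 198 CPM at 0 h. Its log2 change of -0.18 passed with the replicate block (edgeR adjusted p = 0.00336) and not without it (edgeR adjusted p = 0.0856).

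Of 5 kinetochore and centromere genes 2 fell. Cenpa, the histone variant that marks centromeres (chromosome 5, 30666777 to 30674830), stood at 71.6, 56.3, 60.0, 61.9 and 62.5 CPM at 24 h, against 77.5, 72.0, 69.6, 77.9 and 75.3 CPM at 0 h. A217 at 24 h overlapped the 0 h range, the log2 change was -0.25 ± 0.06, and the gene fell (edgeR adjusted p = 0.0132). Cenpe, a kinetochore motor, fell too and stood at 142, 116, 134, 108 and 112 CPM at 24 h, against 162, 129, 149, 152 and 134 CPM at 0 h, a log2 change of -0.26. Both A217 and A225 at 24 h overlapped the 0 h range in Cenpe. Cenpf, a large kinetochore protein and the highest of the group by CPM, stood at 153, 138, 158, 129 and 132 CPM at 24 h, against 172, 139, 166, 159 and 149 CPM at 0 h. Its log2 change was -0.15 and that of Nuf2 -0.19. Both passed with the replicate block only. Ndc80, which with Nuf2 forms the grip on microtubules, had a log2 change of -0.11 that passed neither way (edgeR adjusted p = 0.51 and 0.0806 with the replicate block).

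At anaphase onset Espl1 and Ube2c fell. Espl1 (chromosome 15, 102296266 to 102324357), the protease that splits cohesin, stood at 36.1, 32.5, 28.6, 34.0 and 32.3 CPM at 24 h, against 39.9, 42.7, 37.9, 43.1 and 38.1 CPM at 0 h. No library of one group reached the other, and the log2 change was -0.30 ± 0.07 (edgeR adjusted p = 0.00833). Ube2c, the ubiquitin-conjugating enzyme of the anaphase-promoting complex, stood at 101, 85.9, 95, 85.6 and 97.2 CPM at 24 h, against 108, 101, 104, 103 and 112 CPM at 0 h, again without overlap, a log2 change of -0.19. Cdc20 stood at 243, 185, 176, 207 and 201 CPM at 24 h, against 257, 246 and 219.8 CPM at 0 h in inducible lines and a mean of 232 ± 9.27 CPM at 0 h in negative lines (SD, n = 2). Only A217 at 24 h lay inside the 0 h range. Its log2 change of -0.23 passed with the replicate block (edgeR adjusted p = 0.000941) and not without it (0.0598).

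Of the spindle assembly genes, Kif11, the motor that pushes spindle poles apart, fell and stood at 119, 90.7, 107, 93.9 and 91.6 CPM at 24 h, against 136, 106, 127, 125 and 119 CPM at 0 h, a log2 change of -0.29. A220 was the lowest library of Kif11 at both times, and A217 and A225 at 24 h overlapped the 0 h range. Kif2c, a microtubule-depolymerising kinesin, and Nusap1, a microtubule-bundling protein, had log2 changes of -0.24 and -0.16 and passed with the replicate block only. Of 6 genes of the central spindle and cytokinesis, Anln and Racgap1 fell. Anln, the anillin scaffold of the contractile ring, stood at 234, 185, 232, 206 and 194 CPM at 24 h, against 249.5, 232, 256, 253 and 249.7 CPM at 0 h, a log2 change of -0.24. Racgap1, a subunit of centralspindlin, stood at 202, 166, 175, 180.5 and 171 CPM at 24 h, against 220.3, 199, 203, 216 and 205 CPM at 0 h, a log2 change of -0.22. In each, A217 was the only 24 h library within the 0 h range. Prc1, which bundles the central spindle, the kinesins Kif20a and Kif23, and the RhoA activator Ect2 had log2 changes between -0.22 and -0.14 and passed with the replicate block only. Top2a stood at 836, 597, 690.2, 618 and 609 CPM at 24 h, against 915, 762, 841, 848 and 805 CPM at 0 h, a log2 change of -0.32, and fell. Mki67, which encodes the proliferation marker Ki-67, stood at 504, 409, 425, 371 and 435 CPM at 24 h, against 522, 456, 472, 518 and 526 CPM at 0 h. The negative line A218 had the lowest 24 h level of Mki67, and its log2 change of -0.22 over all lines passed with the replicate block (edgeR adjusted p = 0.000185) and not without it (0.0608).

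After 4 h of doxycycline the median change of the mitotic genes was near 0. Over all 5 lines 24 of 36 log2 changes were negative, with a median of -0.02 and a range of -0.22 (Incenp) to 0.10 (Ect2), against a median of 0.00 over all features. edgeR called none of the 36, where 0.917% of all features were called. An unadjusted p under 0.05 was found in 2 of the 36, Incenp and Cdca8, and in 1976 of 16462 features. With the replicate block 1 gene was called, Incenp, against 4.96% of all features called lower. It was also the 1 gene called by limma-voom with a random block and by DESeq2. In inducible lines alone edgeR called 0 of 36 at 4 h, where 0.298% of all features were called. An unadjusted p under 0.05 was found in 2 of the 36 and in 1251 of 16462 features. There the replicate block called 1, again Incenp, against 1.72% of all features called lower. DESeq2 called 0 and limma-voom 1. In negative lines edgeR called 0 of 36, and the replicate block called 0, against 0.121% and 2.04% of all features. At an unadjusted p under 0.05 edgeR had 0 of 36, against 1039 of 16462 features. With the block it had 2 of 36, against 2413 of 16462 features. DESeq2 and limma-voom called 0 there too.

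Incenp had the lowest log2 change of the 36 at 4 h. With the block, 1 call in 36 genes is below the 4.96% of all features called lower over all lines. It stood at 99.3, 93.6, 89.4, 101 and 95.7 CPM at 0 h, 83.7, 73.8, 77.3, 88.7 and 87.1 CPM at 4 h and 93.2, 74.9, 69.5, 78.2 and 76.9 CPM at 24 h. Every 4 h library was below every 0 h library, and only Aurka shared that among the 36. The log2 change of Incenp at 4 h was -0.22 ± 0.07 (edgeR adjusted p = 0.168, 0.00437 with the replicate block). From 4 h to 24 h A217 and A220 were higher and the other 3 lines lower, a log2 change of -0.06. Aurka stood at 114, 96.8, 109.5, 109 and 112 CPM at 4 h, against 121, 117, 114, 116 and 117 CPM at 0 h, a log2 change of -0.11 that passed neither way (edgeR adjusted p = 0.56, 0.122 with the replicate block).

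Ect2 was the gene with a higher 4 h level in each of the 5 lines. It stood at 251, 218.2, 239, 244 and 228 CPM at 0 h, 256, 224, 266, 246 and 277 CPM at 4 h and 231, 194, 234, 214 and 198 CPM at 24 h. Its log2 change at 4 h was 0.10 and did not pass (edgeR adjusted p = 0.62, 0.123 with the replicate block). At 24 h against 4 h it fell, with a log2 change of -0.25 ± 0.07 (edgeR adjusted p = 0.0239). Bub1 had a similar course and stood at 115, 96.1, 117, 109 and 99.4 CPM at 0 h, 119, 98.8, 125, 107 and 120.3 CPM at 4 h and 101, 76.7, 104, 91.0 and 85.5 CPM at 24 h. Only A218 was lower at 4 h, and Bub1 fell at 24 h against 4 h with a log2 change of -0.32. Mad2l1, the checkpoint protein that binds CDC20, stood at 124, 95.8, 112, 105 and 97.5 CPM at 24 h, against 130.1, 112, 123, 123 and 137 CPM at 4 h and fell as well (-0.23). Without the block, these 3 genes were called against 4 h and not against 0 h.

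The direction at 4 h varied by line. The median log2 change of the 36 genes was -0.04 in A217, -0.12 in A220 and 0.03 in A225 among inducible lines, against -0.08 in A218 and 0.06 in A223 among negative lines. In A223 26 of the 36 genes were higher at 4 h, led by Cenpe (0.30), and its summed level was 6443 CPM at 4 h, against 6108 CPM at 0 h. In A218 35 of 36 were lower.

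At 24 h against 4 h all 36 log2 changes were again negative over the 5 lines, between -0.34 (Bub1b) and -0.03 (Bub3), with a median of -0.20. 15 genes fell in edgeR's test, against 7.99% of all features, and 29 with the replicate block, against 15.8% of all features. The 15 were among the 29. The 7 without a call with the block were Aurka, Bub3, Ccnb1, Cenpf, Incenp, Kif20a and Plk1. By p, Aurkb came first with a log2 change of -0.30 ± 0.07 (edgeR adjusted p = 0.00772), followed by Cdca8 (-0.23), Bub1b (-0.34) and Ccna2 (-0.28). The 24 h and 4 h values of Espl1 did not overlap, the only such gene of the 36. The count of 15 was 4 without A223 at 4 h, 5 without A217 at 4 h, 7 without A225 at 4 h, 7 without A220 at 24 h, 7 without A223 at 24 h, 9 without A218 at 24 h and 30 without A217 at 24 h. Aurkb, Cdca8 and Bub1b were called in each of the 10 fits with 1 library left out. Over all features, 815 of 16382 were called lower at 24 h against 4 h without A217 at 4 h. It was 1036 of 16385 without A225 at 4 h, 864 of 16424 without A220 at 24 h and 1621 of 16433 without A217 at 24 h. The comparisons with 0 h and with 4 h share the 24 h libraries, so they are not independent.

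**Figure D3:**
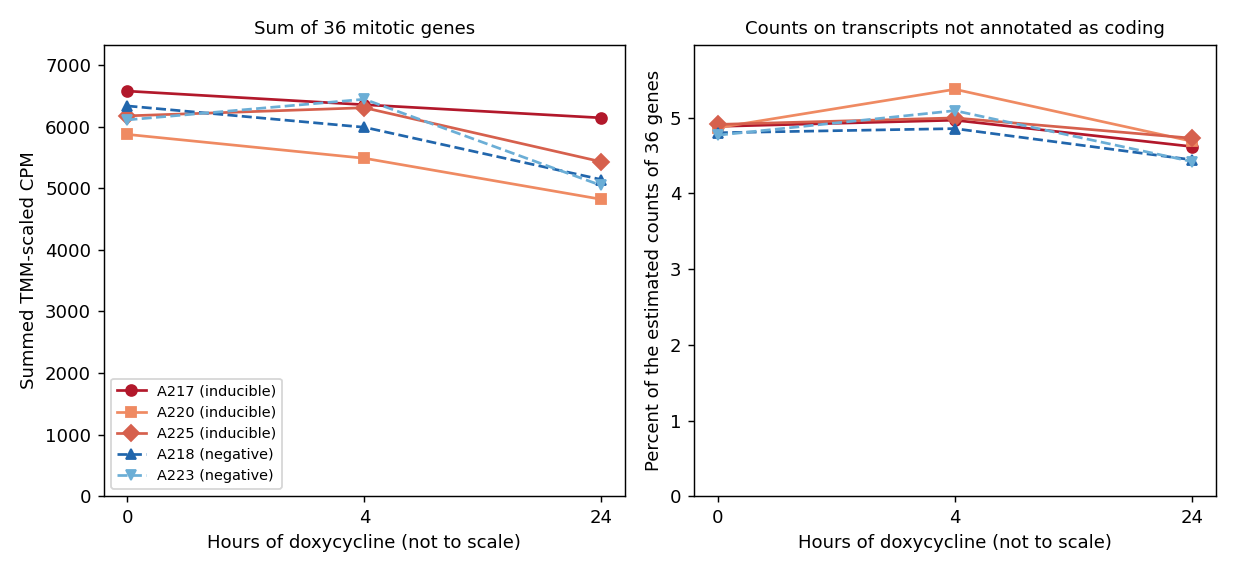
Left, the summed TMM-scaled CPM of the 36 genes at 0, 4 and 24 h of doxycycline in each line; right, the percent of their estimated counts on transcripts not annotated as protein coding. Solid lines are inducible and dashed lines negative; at 24 h the sums lie between 4819 and 6141 CPM, against 5872 to 6575 CPM at 0 h.

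Whether CA19-9 itself matters for these genes is asked by comparing the response of inducible lines with that of negative lines. In inducible lines at 24 h against 0 h all 36 log2 changes were negative, with a median of -0.19, and 2 genes fell, Cdca8 (-0.30 ± 0.06, edgeR adjusted p = 0.0201) and Aurkb (-0.38 ± 0.08, edgeR adjusted p = 0.0266). Of all features 1.49% were called lower there. Under the replicate block 24 fell, against 10.2% of all features. In negative lines 35 of 36 were negative, with a median of -0.26, and 1 gene fell, Cdca8 (-0.38 ± 0.08, edgeR adjusted p = 0.0188), against 1.06% of all features. Under the replicate block 32 fell, against 8.83% of all features. Bub3 was the exception in negative lines, with a log2 change of 0.01. The inducible count of 2 was 16 without A217 at 24 h, 1 without A220 or A225 at 0 h, and 0 without A217 at 0 h or A220 or A225 at 24 h. Calls over all features moved too. In inducible lines 909 of 16433 were called lower without A217 at 24 h. It was 102 of 16391 without A220 at 0 h, 89 of 16384 without A225 at 0 h and 44 of 16399 without A217 at 0 h. Without A220 or A225 at 24 h it was 34 of 16424 or 38 of 16397. The negative count of 1 was 0 without any 1 of its 4 libraries, where the lone library is assumed to vary like the other groups.

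The difference between the responses was tested directly. At 24 h edgeR called none of the 36 (0 at an unadjusted p under 0.05), against 0.0121% of all features. With the replicate block it called 0, against 0.0243% of all features. There 1324 of 16462 features had an unadjusted p under 0.05, among them 4 of the 36 (Mki67, Kif23, Kif11 and Top2a). Of these 4 genes Mki67 had the smallest p, with a difference, inducible minus negative, of 0.26 ± 0.07 (edgeR with the block, unadjusted p = 0.00233). DESeq2 and limma-voom also called 0, with 0 and 1 at an unadjusted p under 0.05, against 378 and 1179 of 16462 features. The median difference, inducible minus negative, was 0.09, and in 32 of 36 genes the decrease was smaller in inducible lines. Without A217 at 24 h this median was -0.01. In the fit without the block, which leaves the pairing out, the 95% intervals of all 36 differences include 0. Together they run from -0.46 to 0.61 on the log2 scale. The interval was -0.289 to 0.315 for Aurkb and -0.143 to 0.311 for Cdca8. The largest difference was that of Mki67, at 0.26 ± 0.15 (edgeR adjusted p = 1, 0.531 with the replicate block). Mki67 averaged 446 ± 51.2 CPM at 24 h and 484 ± 34.1 CPM at 0 h in inducible lines (SD, n = 3), against 403 ± 45.6 CPM at 24 h and 522 ± 5.88 CPM at 0 h in negative lines (SD, n = 2). Cenpe came next, at 0.22 ± 0.16. In both, the negative line A218 had the largest decrease of the 5 lines.

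**Figure D4:**
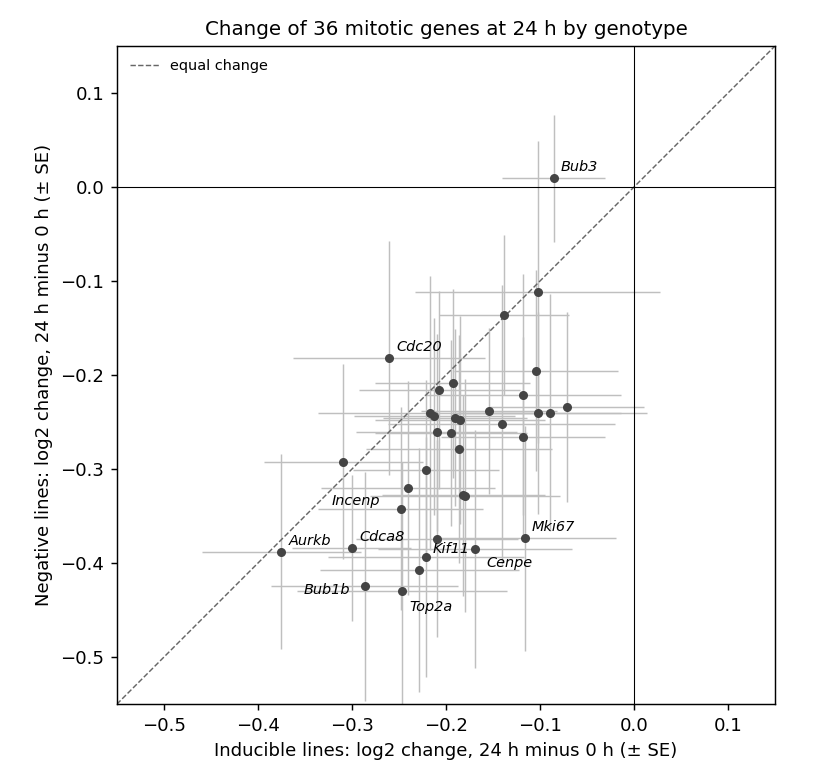
Log2 change at 24 h minus 0 h in inducible lines (x axis) against negative lines (y axis) for the 36 genes, with SE bars from edgeR and a dashed line of equal change. All points but Bub3 lie below 0 on both axes, and Bub3 stands at 0.01 in negative lines.

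At 4 h the difference of responses had a median of -0.05. edgeR called 0 of 36 (0 at an unadjusted p under 0.05), against 0.0121% of all features, and 0 with the replicate block (0 at an unadjusted p under 0.05), against 0.0182%. DESeq2 and limma-voom called 0. Inducible lines were also compared with negative lines at each time. At 0 h the median log2 difference of the 36 was 0.00 and edgeR called 0 (0 at an unadjusted p under 0.05), against 0% of all features. At 4 h the median was -0.06, with 0 called, against 0.0121% of all features. Of the 36, 1 had an unadjusted p under 0.05 at 4 h, against 550 of 16462 features. At 24 h the median was 0.09, with 0 called, against 0.0121% of all features. Here too 1 of the 36 had an unadjusted p under 0.05, against 947 of 16462 features. DESeq2 and limma-voom called 0 at each time. The widest gap before doxycycline was that of Foxm1, which averaged 58.8 ± 2.21 CPM in inducible lines and 67.3 ± 7.47 CPM in negative lines (SD, n = 3 and 2).

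Most of the other genes of cell division listed were also lower at 24 h. Of 124 further mitotic genes in 8 lists, 111 had a negative log2 change at 24 h against 0 h over all lines. The median of the 124 was -0.19. Of these genes 51 fell and 2 rose, against 7.98% of all features called lower and 1787 of 16462 called higher. With the replicate block 86 fell and 3 rose, against 15.6% called lower and 3432 of 16462 called higher. The same shares apply to the 24 h counts of each list below. The lists of cohesin and of the anaphase-promoting complex came closest to them. Of 9 other kinesins 6 fell (9 with the block), with Kifc1, Kif18b and Kif14 (-0.28, -0.32 and -0.24) at the smallest p. Of 14 regulators of mitotic entry 9 fell (13 with the block), with the smallest p in Gtse1, Ccnf and the phosphatase Cdc25a (-0.38, -0.30 and -0.27). Cdc25a was the only one of the 124 called at 4 h, with a log2 change of -0.26 (edgeR adjusted p = 0.048), where 0.917% of all features were called. With the replicate block 6 of the 124 fell at 4 h, against 4.96% of all features, so both counts are near the background. Of 21 other spindle and centrosome genes 12 fell (17 with the block), among them Cep152, Spag5 and Cep192. Of 28 other kinetochore and centromere genes 12 fell (20 with the block), with Nsl1, Dsn1 and Ska1 at log2 changes of -0.50, -0.38 and -0.51. Of 8 condensin genes 3 fell, namely Ncaph, Ncapg2 and Ncapd3, and 8 with the block. Of 14 genes for the transcription of mitotic genes 4 fell (8 with the block), with the smallest p in E2f7, Mybl2 and Tfdp1 (-0.49, -0.53 and -0.21). Of 13 cohesin genes Cdca5 and Rad21 fell (6 genes with the block) and Esco1 rose. Of 17 genes of the anaphase-promoting complex and its regulators 3 fell (5 with the block), with the inhibitor Fbxo5 at -0.45, and Anapc16 rose (0.16). Of 30 genes of replication licensing and the fork 22 fell, with a median of -0.30, and all 30 with the replicate block. Orc1, Rfc4 and Rrm2 (-0.50, -0.38 and -0.36) had the smallest p. At 4 h that list had a median of -0.12, with 0 called by edgeR and 10 with the replicate block, where 4.96% of all features were called lower. Whether these lists differ from the 36 genes was not tested.

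**Figure D5:**
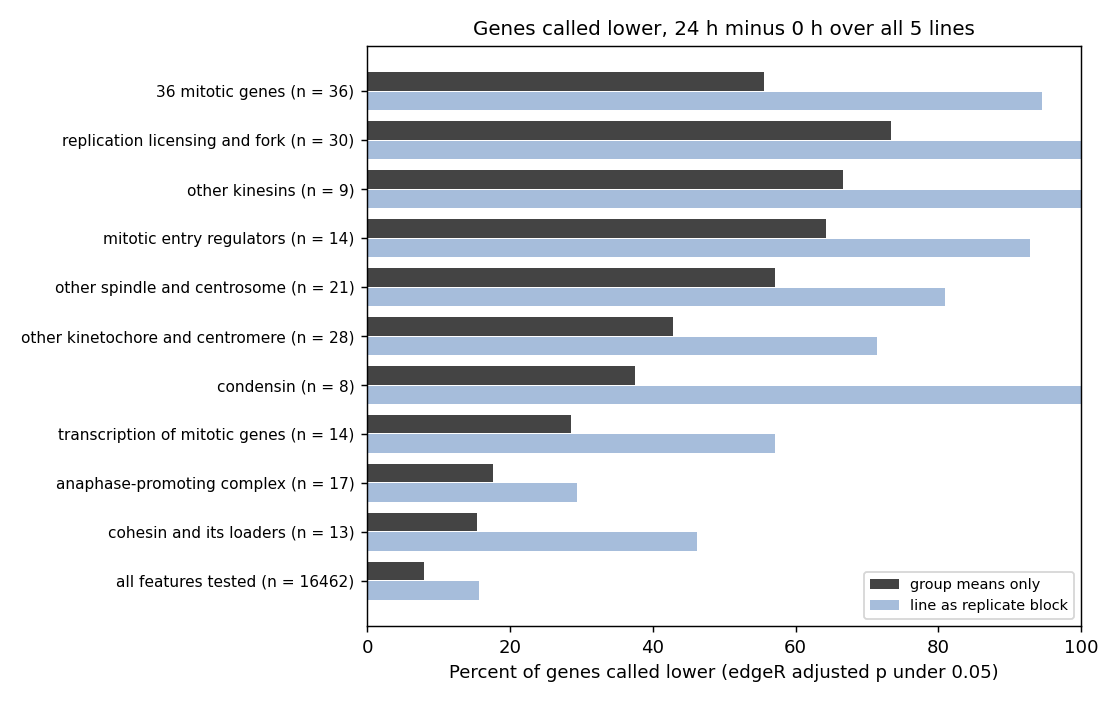
Percent of genes called lower at 24 h minus 0 h over all 5 lines in the 36 genes, in 9 other cell cycle lists and over all features; dark bars are edgeR with group means only and light bars with the line as replicate block. 20 of the 36 genes are called in the dark bar and 34 in the light bar, and the bars of all features stand at 7.98% and 15.6%.

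The counts of the 36 genes came from 202 annotated transcripts. In 29 genes 1 transcript took over 75% of the estimated counts, and the leading transcript was protein coding in 35. The exception was Cenpa, where the transcript Cenpa-202, annotated for nonsense-mediated decay, took 39.6 to 43.4% at 24 h and 36.1 to 43.8% at 0 h. The retained-intron transcript Cenpa-208 took 8.03 to 10.6% of the counts of Cenpa at 24 h, against 11.3 to 12.6% at 0 h, with no overlap over the 5 lines. How many of the 202 transcripts separate in this way was not counted. In Mad2l1 the retained-intron transcript Mad2l1-203 took 24.9 to 30.4% at 24 h and 29.0 to 31.3% at 0 h. Over all 36 genes, transcripts not annotated as coding took 4.77 to 4.91% at 0 h, 4.86 to 5.38% at 4 h and 4.42 to 4.73% at 24 h. In each of the 5 lines that share was higher at 4 h and lower at 24 h than at 0 h. No test was made of these shares, and they rest on how the quantification split reads among similar transcripts.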

How the data were processed

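RNA depleted of ribosomal RNA was sequenced as paired reads, per the labels' protocols. The deposited files give estimated counts and TPM per transcript, per the file headers, and the submitters' processing notes name kallisto 0.43.1, GRCm38 and DESeq2 1.18.1. Whether strand was used is not stated in the labels. The estimated counts the authors deposited were summed per gene with GENCODE M21 and rounded, and the deposited TPM values were summed for levels per length. The 1295 transcript IDs that matched no gene held 0.557% to 0.593% of counts and were left out.

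edgeR 4.0.16 (R 4.3.3) fitted group means for the 6 groups over all 15 libraries, with TMM scaling (factors 0.966 to 1.023) and its expression filter, which left 16462 features. The quasi-likelihood test was used, with Benjamini-Hochberg adjustment over all features and calls at an adjusted p under 0.05. Contrasts over all 5 lines weight lines equally. Libraries of 1 line pair across times because they come from the same organoid line, and their deviations from group means correlated at 0.381 to 0.476 in inducible lines and 0.238 to 0.285 in negative lines. A fit with the line as replicate block is therefore given beside the counts it moves. Alternatives were that block, limma-voom (limma 3.58.1) with the line as random block, DESeq2 1.42.0, median-of-ratios scaling, other filters, the compared groups only, and each library left out. The fits were also run on simulated counts that held no line effect, so that test cannot decide between the fits with and without the block.

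All 36 genes are accounted for by role. Full statistics are given for at most 8 genes a comparison by smallest p among those called, per-library values for called genes and the most abundant of each role, and at most 3 called genes a list elsewhere. Incenp, Ect2, Bub1 and Mad2l1 at 4 h, Mki67, Foxm1 at 0 h, and the transcripts named were chosen after their values were seen. The genes and lists were chosen with earlier results of these data known. Promoters were those of RefSeq GRCm38.p6.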

Additional observations from a re-analysis of the deposited data

How the results depend on the processing

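The decrease at 24 h kept its direction in all settings run, and how many of the 36 genes were called depended on them. Without the block, 20 genes were called at 24 h against 0 h over all lines, 15 at 24 h against 4 h, 2 in inducible and 1 in negative lines at 24 h, and 0 at 4 h. With the replicate block the counts were 34, 29, 24 and 32 at 24 h, and 1 at 4 h over all lines and 1 in inducible lines at 4 h. limma-voom gave 33, 25, 22 and 26 at 24 h and 1 and 1 at 4 h. DESeq2 gave 27, 19, 5 and 14 at 24 h and 1 at 4 h over all lines. In negative lines at 24 h 2 were called under median-of-ratios scaling, 2 when all genes were kept, 3 when 1 CPM in 3 libraries was required and 26 in the compared groups only. The compared groups only gave 0 in inducible lines at 24 h and 1 at 4 h over all lines. In that setting 1 of 14995 features was called lower in inducible lines at 24 h, and 77 of 16209 at 4 h over all lines. Calls over all features shifted as well. At 24 h against 0 h over all lines, 1314 of 16462 features were called lower without the block and 2576 with it. There limma-voom called 2516 lower and DESeq2 1710. At 24 h in inducible and negative lines limma-voom called 1446 and 1258 of 16462 lower, and DESeq2 771 and 650. In negative lines at 24 h, 175 of 16462 were called lower without the block and 747 of 15219 in the compared groups only. The causes of these shifts were not tested.

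Leaving out 1 library at a time gave 7 to 28 called genes at 24 h against 0 h over all lines, 4 to 30 at 24 h against 4 h, 0 to 16 in inducible lines and 0 to 0 in negative lines. Over all features, 839 of 16399 were called lower at 24 h against 0 h over all lines without A217 at 0 h. Without A217 at 24 h it was 1707 of 16433. No log2 change of a called gene changed sign in any setting. With 3 and 2 lines a group, differences between the 24 h responses of inducible and negative lines had wide 95% intervals. Their median width was 0.625 on the log2 scale in the fit without the block.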
